A study of Saccharomyces cerevisiae with 5 samples.

Results

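Yeast cells moved into salt switch on a common set of protective genes, and 10 of them are described here out of 6388 gene probes on the arrays. They are SIP18 (YMR175W), GRE1 (YPL223C), HSP12 (YFL014W), DDR2 (YOL052C-A), HOR7 (YMR251W-A), SPI1 (YER150W), RTN2 (YDL204W), CTT1 (YGR088W), ALD3 (YMR169C) and GRE2 (YOL151W). They were taken by their systematic names from a list of salt-induced hydrophilins and general stress genes, not by their values on these arrays. The study measured total RNA of Saccharomyces cerevisiae on 2-colour oligonucleotide arrays, with 2 strains on each array, 5 arrays and 3 strain comparisons. Every culture, controls included, was exposed to NaCl at 0.5 mol/L for 45 min.

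The first comparison set bdf1Δ+HAL2, a bdf1Δ strain with HAL2 overexpression, against bdf1Δ on 2 arrays with exchanged dyes. The second set the double deletion strain bdf1Δhda1Δ against bdf1Δ, again on 2 dye-exchanged arrays. The third set bdf1Δ against its parent W303 on 1 array. BDF1 encodes a bromodomain protein that binds acetylated histones and works with TFIID. HDA1 encodes a histone deacetylase. HAL2, listed on the arrays as MET22, encodes a nucleotide phosphatase that is inhibited by sodium. The sources used here give neither the promoter and copy number of the HAL2 construct nor the number of clones per strain. No unsalted culture was analysed here, so the values compare strains in salt and do not measure salt induction.

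In budding yeast, high external salt activates the MAP kinase Hog1 and, with the general stress pathway, the zinc-finger activators Msn2 and Msn4, which bind stress response elements in many promoters. Hydrophilins are small, very hydrophilic proteins that protect cell structures when water is lost. Other targets detoxify peroxides and aldehydes or change the cell wall and membranes. RNA was taken from whole cultures, so fewer responding cells and less RNA per cell cannot be told apart.

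A dye-exchanged pair repeats the same comparison technically and counts as 1 replicate, so there are no p-values. Errors are the SD of the 2 arrays of a pair, or, on the single W303 array, of the 3 spots printed for each gene, and cover technical spread only. Ratios are log2 values of the first-named strain over the second after a loess fit across each array. A gene was called higher or lower where it passed 2-fold in one direction on every array of the comparison, the selection rule in the labels. Net intensities, given below as medians of 3 spots, are spot medians minus local background. They are not scaled between dyes, so the ratio of 2 net intensities is not the normalized fold.

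The deleted and overexpressed genes were checked first. BDF1 was above background in 0 of 3 spots in every channel with a bdf1Δ-derived strain and in 3 of 3 spots in W303. MET22 (HAL2) was higher in bdf1Δ+HAL2 by a log2 ratio of 3.73 ± 0.15, and HDA1 was above background in 0 of 3 spots of bdf1Δhda1Δ on both arrays, but also in 0 of 3 spots of bdf1Δ on array 1 of that pair, so it checks the deletion weakly. The spot finder located 68.9% to 72.9% of gene spots in the HAL2 pair, 32.9% to 40.3% in the hda1 pair and 58.5% on the W303 array. On the W303 array the bdf1Δ channel was dim: 36.9% of its gene spots were above background, against 91.2% for W303. There 35.9% of the variance of the ratios lay between print blocks, against 3.18% to 10.7% on the other 4 arrays, so the W303 values are also given after a loess fit within each of the 48 blocks (print-tip loess).

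**Figure D1:**
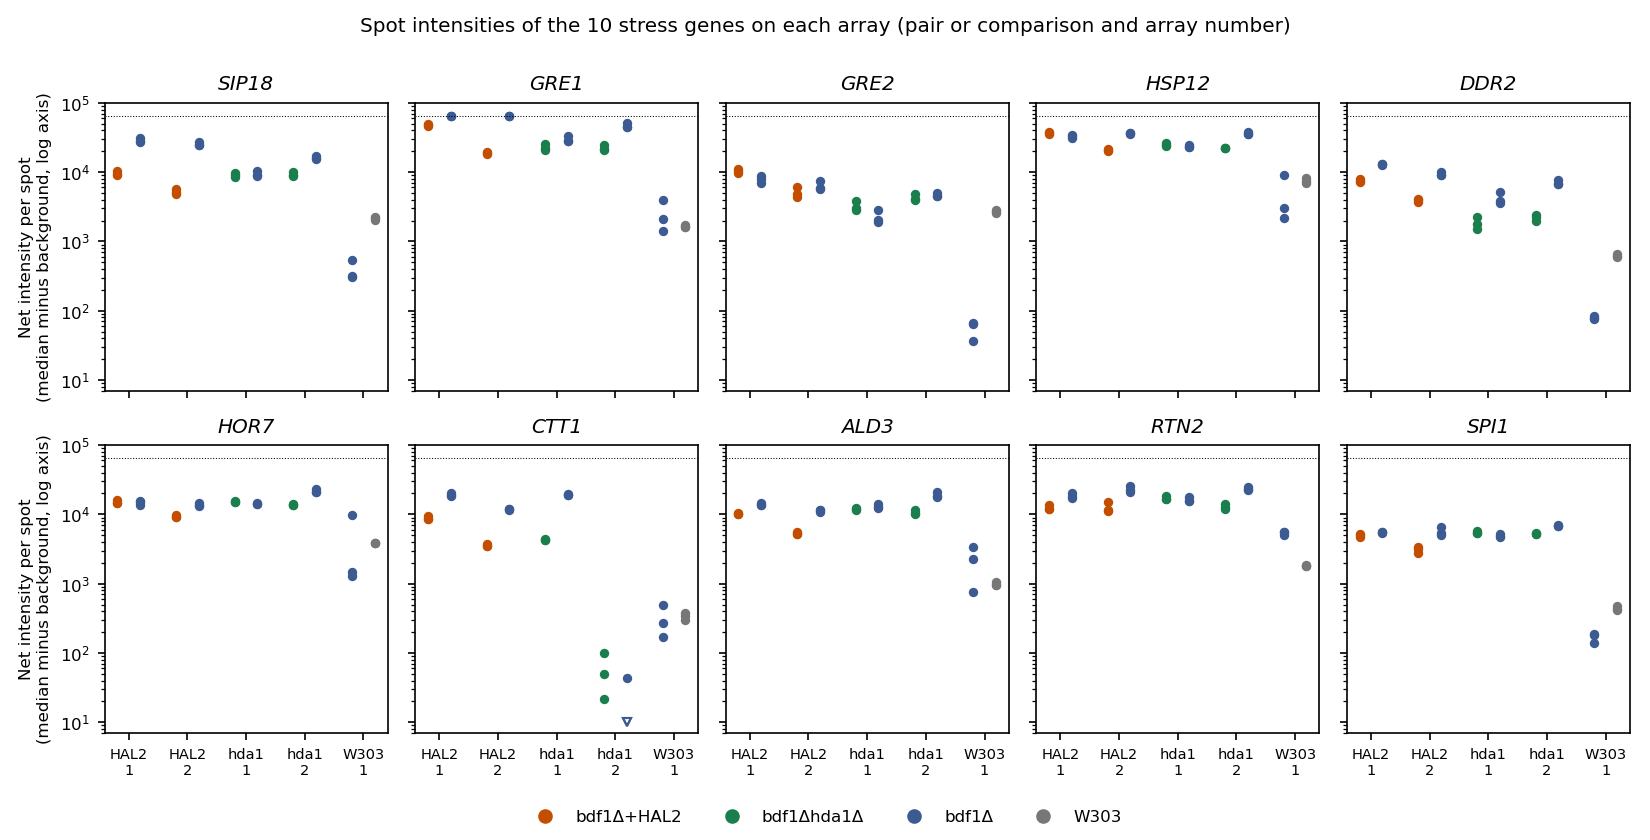
Net intensity of each repeat spot (log axis) for the 10 genes, by comparison and array number, with the first-named strain left of the second in each pair of columns; the dotted line is the scanner's ceiling, and open triangles at the bottom stand for spots below 10. By the median of the spots, SIP18, CTT1 and DDR2 were dimmer in bdf1Δ+HAL2 than in bdf1Δ on both arrays, as were GRE1, ALD3, RTN2, SPI1 and HOR7. GRE1 sat at the ceiling in bdf1Δ in the HAL2 pair, and CTT1 gave no signal in either channel on array 2 of the hda1 pair.

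With HAL2 overexpressed, the hydrophilin gene SIP18 and the catalase gene CTT1 fell and none of the 10 rose. SIP18 was 3.24-fold lower in bdf1Δ+HAL2 than in bdf1Δ and CTT1 was 2.57-fold lower. DDR2 lay at the threshold with a 1.98-fold lower value. The other 7 were between 1.62-fold lower (ALD3) and 1.15-fold higher (HSP12). All 10 were measured, and 2 were called lower where 1.03% of 4266 measured genes were; 0 were called higher where 0.445% of genes were.

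SIP18 encodes a phospholipid-binding hydrophilin needed for survival of drying. Its net intensity was 9461 on array 1 and 5096.5 on array 2 in bdf1Δ+HAL2, against 28172 and 24550 in bdf1Δ. The lowest bdf1Δ spot, 24317, exceeded the highest bdf1Δ+HAL2 spot, 10448, before scaling between dyes. Repeat spots share 1 hybridization, so this gap does not measure the spread between cultures. HSP12 spots of these strains were also apart on each array, in opposite directions. The log2 ratio of SIP18 was -1.71 on array 1 and -1.68 on array 2. Its mean of -1.70 ± 0.02 (SD, 2 arrays) ranked 6 from the lowest of 4266 genes.

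GRE1 is the paralogue of SIP18 and also a hydrophilin gene. Its net intensity was 47402 and 18911 in bdf1Δ+HAL2, against 65167 and 65378 in bdf1Δ, where all 3 spots on both arrays were saturated. The ratio of -0.47 ± 0.16 is therefore a bound, and so is the -0.24 of print-tip loess. By the smaller of these, GRE1 was at least 1.18-fold lower in bdf1Δ+HAL2. How much further it differed cannot be read from these arrays, so the smaller value of GRE1 does not show that it changed less than SIP18.

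HSP12, which encodes a small membrane-stabilising heat shock protein, was bright in both strains. It had net intensities of 36063 and 20694 in bdf1Δ+HAL2, against 33403 and 36087 in bdf1Δ. Its log2 ratio was 0.13 on array 1 and 0.28 on array 2 (mean 0.21 ± 0.11), and print-tip loess turned the mean to -0.13.

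CTT1 encodes the cytosolic catalase, which breaks down hydrogen peroxide. Its net intensity was 8469 and 3464.5 in bdf1Δ+HAL2, against 19255 and 11773 in bdf1Δ. Before scaling between dyes, every bdf1Δ+HAL2 repeat spot was dimmer than every bdf1Δ repeat spot. The same was true of SIP18 and of GRE1, DDR2, ALD3 and RTN2, which were not called, so it does not set CTT1 apart. The share of all genes with such a gap was not counted. The log2 ratio of CTT1 was -1.32 on array 1 and -1.40 on array 2 (mean -1.36 ± 0.05), rank 19 from the lowest.

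DDR2, a gene for a small stress protein first found as induced by DNA damage, had net intensities of 7480.5 and 3949 in bdf1Δ+HAL2, against 12965 and 9222 in bdf1Δ. The log2 ratio passed the threshold on array 1 (-1.02) and missed it on array 2 (-0.94), with a mean of -0.98 ± 0.06. Print-tip loess gave -1.13 and called it lower, with 1.1% of all measured genes called lower and 0.492% higher under that fit. Its paralogue HOR7, a gene induced by high osmolarity, had net intensities of 14563 and 9279 in bdf1Δ+HAL2, against 15131 and 13667 in bdf1Δ. Its ratio was -0.06 ± 0.12, with opposite signs on the 2 arrays, -0.14 and 0.02.

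Of the remaining 4, ALD3, a cytosolic aldehyde dehydrogenase gene, had the lowest ratio at -0.70 ± 0.03. SPI1, a gene for a cell wall protein held by a GPI anchor, had -0.51 ± 0.14, and both arrays were below 0 (-0.41 and -0.61). RTN2, a reticulon gene of the endoplasmic reticulum, had -0.40 ± 0.47 because its arrays differed, with -0.74 on array 1 and -0.07 on array 2. GRE2, a methylglyoxal reductase gene, had 0.05 ± 0.12.

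**Figure D2:**
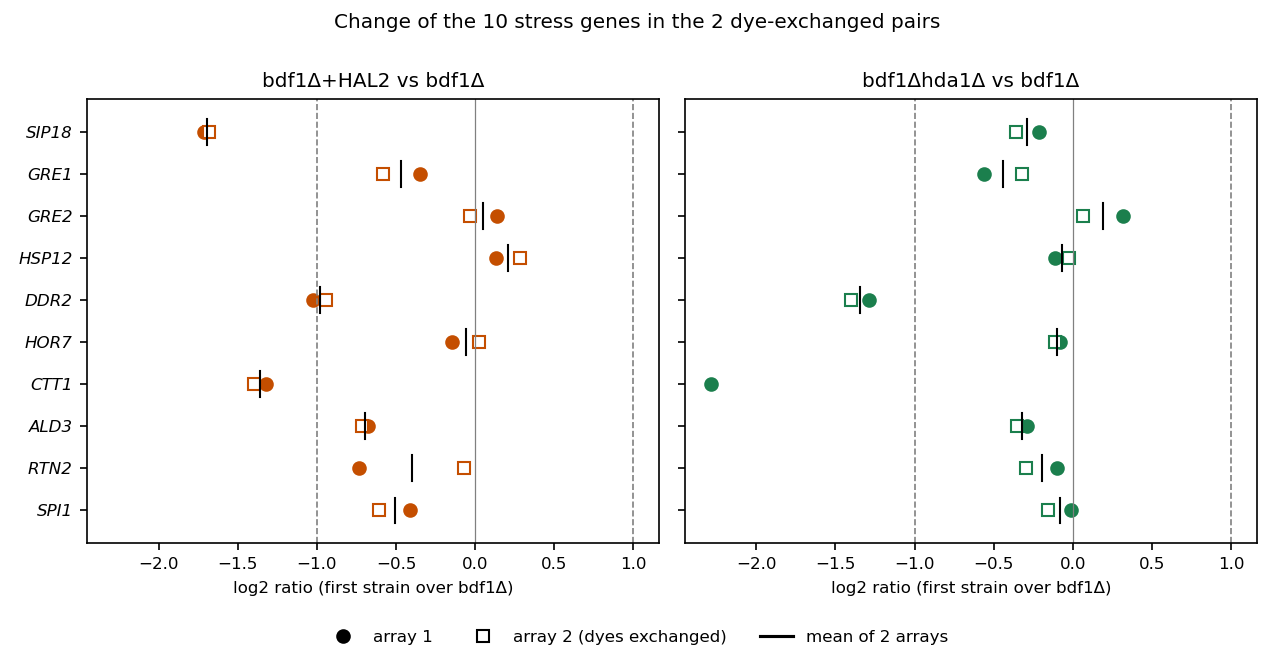
Log2 ratio of each of the 10 genes on array 1 (filled circles) and array 2 (open squares) of the 2 dye-exchanged pairs, with the mean as a bar and dashed lines at 2-fold; the pairs share the bdf1Δ strain as reference. SIP18 and CTT1 lie beyond 2-fold lower on both arrays of the HAL2 pair and DDR2 on both arrays of the hda1 pair, where CTT1 has a value on array 1 alone.

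With HDA1 deleted as well, DDR2 fell and the other 8 measured genes stayed within 1.36-fold. DDR2 was 2.54-fold lower in bdf1Δhda1Δ than in bdf1Δ. Of the 9 measured, 1 was called lower where 0.627% of 2074 measured genes were, and 0 were called higher where 1.06% were. CTT1 had a usable value on 1 of the 2 arrays, and it was far below 0 there.

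DDR2 had net intensities of 1777 and 2265 in bdf1Δhda1Δ, against 3852 and 6763.5 in bdf1Δ. Before scaling between dyes, the repeat spots of the strains did not overlap on either array. The same was true of GRE1, ALD3 and HOR7, which were not called, and for HOR7 the arrays went in opposite directions. This gap therefore does not set DDR2 apart, and the share of all genes with it was not counted. The log2 ratio of DDR2 was -1.29 on array 1 and -1.40 on array 2 (mean -1.35 ± 0.08), rank 7 from the lowest of 2074 genes. Its paralogue HOR7 had 15240 and 13632 in bdf1Δhda1Δ, against 14253 and 21071 in bdf1Δ, and a ratio of -0.10 ± 0.02.

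CTT1 had a net intensity of 4328.5 in bdf1Δhda1Δ on array 1, against 19038 in bdf1Δ, with all 3 spots usable. This log2 ratio of -2.29, or 4.88-fold lower, was the lowest of the 2089 genes measured on that array. On array 2 the same probe was at 50.5 in bdf1Δhda1Δ and 6.0 in bdf1Δ, and 0 of 3 spots were found or above background in either channel. The bdf1Δ strain thus showed strong CTT1 signal on one array of the pair and none on the other, and the call rule leaves the gene unmeasured.

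Of 1904 probes with all 3 spots above background in both channels on array 1, CTT1 was the 1 that went dark on array 2. In the reverse direction it was 0 of 2406, and in the HAL2 pair 2 of 4110 and 0 of 3848. Among the genes spotted next to CTT1, VAS1 and ROM1 had 3 usable spots on array 2, and CLD1 and YGR064W had 0, which also gave no bdf1Δ signal on array 1. The authors' deposited table gives CTT1 ratios of 0.129 on array 1 and 0.722 on array 2; the second of these comes from spots with no signal above background. Why the spots were dark was not tested.

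SIP18 had net intensities of 9000 and 9193 in bdf1Δhda1Δ, against 9102 and 16118 in bdf1Δ, and a ratio of -0.29 ± 0.10. GRE1 was not saturated in this pair and had 22165 and 21554 in bdf1Δhda1Δ, against 28256 and 44941 in bdf1Δ. Its ratio was -0.44 ± 0.17, below 0 on both arrays (-0.56 and -0.32). Neither hydrophilin gene reached 2-fold on either array.

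ALD3 had a ratio of -0.32 ± 0.05, RTN2 -0.20 ± 0.14, SPI1 -0.08 ± 0.10 and HSP12 -0.07 ± 0.06. GRE2 had 0.19 ± 0.18 and was the 1 measured member above 0. The 2 pairs share the bdf1Δ strain, so their values stand side by side here and the difference between them was not tested.

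The median of the 10 genes in the HAL2 pair was -0.49, with 8 of 10 below 0, beside 0.00 and 49.3% below 0 over all measured genes. In the hda1 pair it was -0.20 over 9 genes, with 8 of 9 below 0, beside 0.01 and 48.5%. The range was -1.70 to 0.21 in the HAL2 pair and -1.35 to 0.19 in the hda1 pair.

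Levels were also read across arrays, after the average brightness of spots was brought to one distribution over all of them. The log2 level of SIP18 was 12.10 and 12.44 in bdf1Δ+HAL2 and 13.01 and 13.07 in bdf1Δhda1Δ, beside 13.23 to 14.15 in the 4 bdf1Δ channels of the pairs. That of DDR2 was 11.57 and 11.92 in bdf1Δ+HAL2 and 10.97 and 11.03 in bdf1Δhda1Δ, beside 12.26 to 12.94 in the same 4 bdf1Δ channels. In the pairs, SIP18 read lowest in bdf1Δ+HAL2 and DDR2 lowest in bdf1Δhda1Δ, on the same arrays that gave the ratios. For both genes the range of the bdf1Δ channels was wider than the gap between bdf1Δ+HAL2 and bdf1Δhda1Δ. For SIP18 that range was also wider than the gap of the bdf1Δ channels to bdf1Δhda1Δ. The order of bdf1Δ+HAL2 and bdf1Δhda1Δ is therefore not settled for either gene, nor that of bdf1Δ and bdf1Δhda1Δ for SIP18. On the W303 array bdf1Δ stood apart, at 11.10 for SIP18 and 9.58 for DDR2, beside 12.19 and 9.96 in W303, and DDR2 was above background in 0 of 3 bdf1Δ spots there.

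On the single array of bdf1Δ against W303, RTN2, ALD3, CTT1 and GRE1 were called higher in bdf1Δ and GRE2 and SIP18 lower. Such calls were common on this array: 15.9% of 3688 measured genes were called higher and 18.4% lower. After print-tip loess, with 5.94% of genes called higher and 6.18% lower, GRE1 and ALD3 were still called higher and no member was called lower.

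GRE1 had 1423, 2097 and 3974 net intensity in the 3 bdf1Δ spots, against 1595 to 1697 in W303. Its log2 ratio was 1.41 ± 0.60 (SD, 3 spots) and 2.22 after print-tip loess. The raw intensities of the strains overlap, and the ratio is relative to an array whose median log2 ratio before loess was -1.84.

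ALD3 had 754.5, 2232.5 and 3423.5 in bdf1Δ, against 944 to 1046 in W303, and a ratio of 1.93 ± 0.86 (1.95 after print-tip loess). The bdf1Δ spots were spread widely while those of W303 were close together. The ALD3 ratio in the authors' deposited table is 0.799, on an array where the median of that table's ratios is 0.195; relative to that median its log2 ratio is 2.04.

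RTN2 had the highest ratio of the 10, 2.33 ± 0.06, with 5579 in bdf1Δ against 1814 in W303. The other genes of its print block had a median of 1.44, and print-tip loess gave 0.76. CTT1 had 270.5 in bdf1Δ, against 339 in W303, and a ratio of 1.65 ± 0.48, or 0.83 after print-tip loess. Neither of these calls was kept within blocks.

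GRE2 had the lowest ratio, -2.94 ± 0.10, with 64.0 in bdf1Δ against 2779.5 in W303. It was above background in 0 of 3 bdf1Δ spots, so the size of the difference is uncertain. The other genes of its block had a median of -0.70. Print-tip loess gave -0.42, or 1.33-fold lower in bdf1Δ, which is the value of that fit and not a limit set by background. SIP18 had 315 in bdf1Δ against 2169 in W303 and a ratio of -1.09 ± 0.37, or -0.61 after print-tip loess. From the authors' deposited table, centred on the array's median, SIP18 had 0.42, so its direction against W303 depends on the normalization.

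The other 4 were not called. SPI1 had 0.72 ± 0.08 (0.46 after print-tip loess). HSP12 had -0.35 ± 0.80 and HOR7 0.25 ± 1.41, and both changed sign after print-tip loess (0.05 and -0.47). For HOR7, 1 bdf1Δ spot read 9883 and the others 1273 and 1492, against 3834 to 3875 in W303. DDR2 was above background in 0 of 3 bdf1Δ spots, and its ratio of -0.38 became 0.92 after print-tip loess, so no direction can be given.

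**Figure D3:**
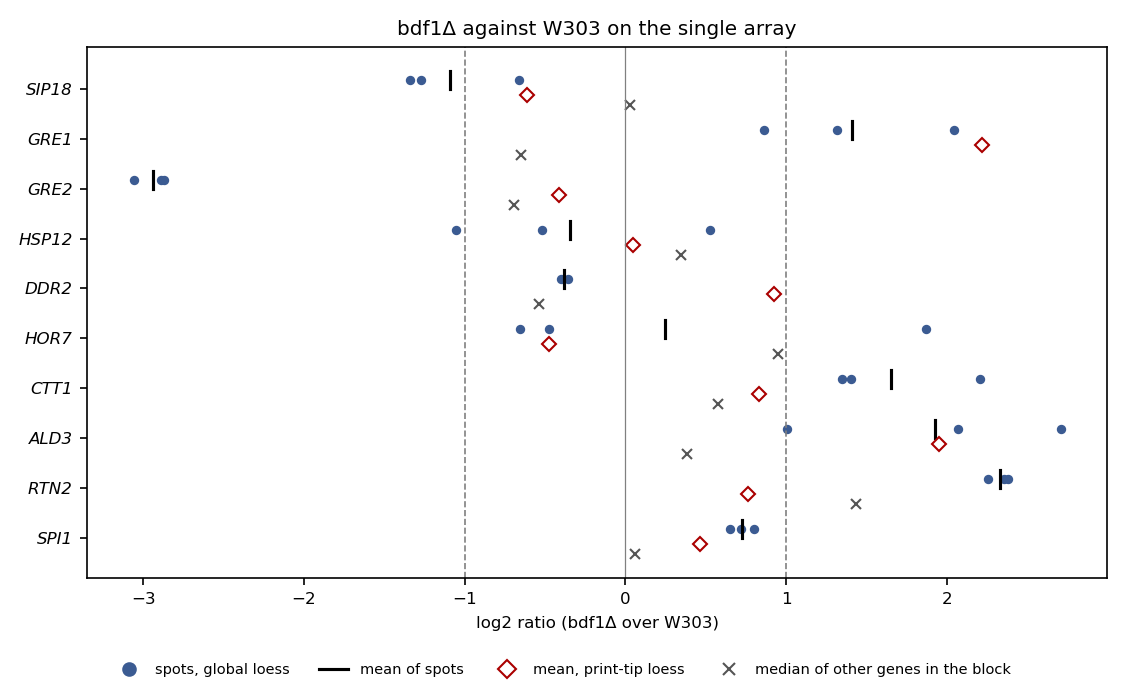
Log2 ratio of bdf1Δ over W303 for each found spot (dots) and their mean (bar) after global loess, the mean after print-tip loess (diamonds) and the median of the other genes in the same print block (crosses), with dashed lines at 2-fold. GRE1 and ALD3 lie above 2-fold with both fits, while the GRE2 mean of -2.94 moves to -0.42 and the RTN2 mean of 2.33 to 0.76.

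Genes related to the 10 were read from lists of paralogues, other hydrophilins, other stress targets and stress regulators. Among 4 other hydrophilins, STF2, whose protein stabilises the inhibited mitochondrial ATPase, fell in bdf1Δ+HAL2 with a ratio of -1.28 ± 0.09. It had 0.06 ± 0.23 in bdf1Δhda1Δ, and -0.83 against W303 that became 0.92 after print-tip loess. ROQ1, a regulator of protein quality control, had -0.54 ± 0.06 in bdf1Δ+HAL2 and 0.31 ± 0.03 in bdf1Δhda1Δ. NOP6 had -0.09 and -0.03 in these strains and YNL190W 0.14 and 0.02.

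Against W303, ROQ1 was called higher at 1.19 (0.37 after print-tip loess) and NOP6 had -0.21 (-0.72). YNL190W was called lower, but 1 of 3 bdf1Δ spots was above background, so the size of the difference is uncertain. Its ratio after print-tip loess was -0.38, or 1.30-fold lower in bdf1Δ. Neither call was kept within blocks.

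Of 7 paralogues, 5 were measured in the HAL2 pair and 4 in the hda1 pair, and 0 were called in either. Over all measured genes 1.03% were called lower and 0.445% higher in the HAL2 pair, and 0.627% and 1.06% in the hda1 pair. With so few measured, the lack of calls does not set the paralogues apart. ALD2, which lies in tandem with ALD3 and encodes a near-identical enzyme, had -0.67 ± 0.01 in bdf1Δ+HAL2, beside -0.70 for ALD3, and 0.09 ± 0.05 in bdf1Δhda1Δ. Whether the 2 probes each bind both transcripts was not tested. SED1, the paralogue of SPI1, was saturated in all 3 bdf1Δ+HAL2 spots on array 1 and all 3 bdf1Δ spots on array 2, so no ratio is given for it there; in bdf1Δhda1Δ it had 0.08 ± 0.11. RTN1, the paralogue of RTN2, had 0.17 ± 0.31 in bdf1Δ+HAL2 and 0.20 ± 0.24 in bdf1Δhda1Δ.

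The GRE2 relatives ARI1 and YDR541C had -0.07 ± 0.19 and 0.17 ± 0.30 in bdf1Δ+HAL2, and ARI1 had 0.34 ± 0.05 in bdf1Δhda1Δ. CTA1 and YGL039W were not measured in any comparison. Against W303, RTN1 was called lower at -3.44, which became -0.43 after print-tip loess. ALD2 had 0.59 there (0.10 after print-tip loess) and SED1 -0.77 (-0.36). ARI1 was above background in 1 of 3 bdf1Δ spots and YDR541C in 0 of 3, and neither has a direction there.

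The 32 other stress targets were all measured in both pairs. In bdf1Δ+HAL2, 24 were below 0 with a median of -0.46, 0 were called lower and 1 higher: YRO2, a plasma membrane protein gene, at 1.03 ± 0.01 (0.77 and not called after print-tip loess). Over all measured genes of the HAL2 pair, 49.3% were below 0, 1.03% were called lower and 0.445% higher. In bdf1Δhda1Δ, 24 were below 0 with a median of -0.25, and 2 were called lower and 1 higher. Over all measured genes of the hda1 pair, 48.5% were below 0, 0.627% were called lower and 1.06% higher. There SSA3, an Hsp70 chaperone gene, fell by 1.49 on the log2 scale and STL1, the glycerol importer gene, by 1.16, while HSP30, which encodes a regulator of the plasma membrane proton pump, rose by 1.22.

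Of the 24 signalling and regulator genes, 20 were measured in the HAL2 pair and 7 in the hda1 pair, and 0 were called in either. Their medians were -0.07 and -0.05. Against W303, 10 of 30 measured stress targets were called higher and 9 lower, and after print-tip loess 8 and 0. Over all genes the shares were 15.9% higher and 18.4% lower, and 5.94% and 6.18% after print-tip loess. Of 19 regulators there, 4 were called higher and 3 lower, and 2 and 1 after print-tip loess. Of the genes called by both fits, the 3 highest by global loess were GAD1, the glutamate decarboxylase gene, at 2.73 (1.65 after print-tip loess), HSP31, a methylglyoxalase gene, at 2.53 (1.20), and TFS1, an inhibitor of carboxypeptidase Y, at 2.23 (1.74). By print-tip loess the highest was the small heat shock protein gene HSP26 at 2.53 (2.07 by global loess). None of the genes in these lists was called lower by both fits.

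**Figure D4:**
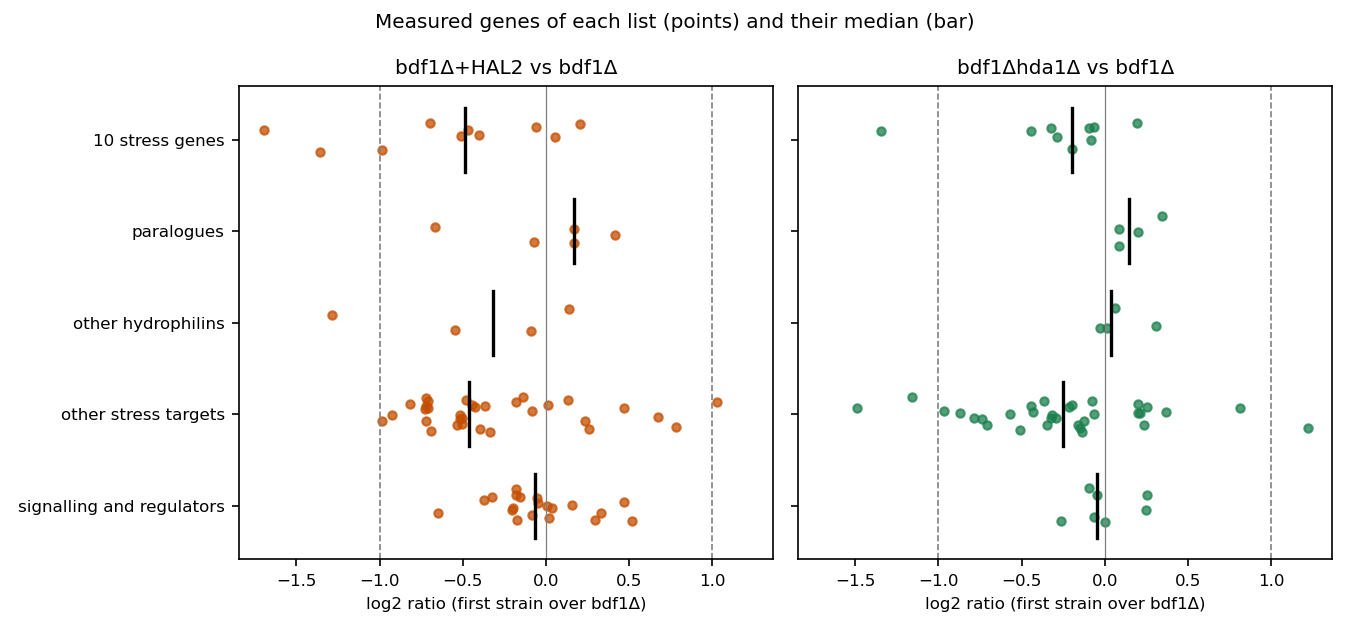
Log2 ratio of every measured gene of each list (points, spread vertically at random) and the list's median (bar) in the 2 dye-exchanged pairs, with dashed lines at 2-fold. The medians of the 10 genes are -0.49 and -0.20, those of the other stress targets -0.46 and -0.25, and those of the regulators -0.07 and -0.05; among the paralogues, SED1 is drawn at 0.42 in the HAL2 pair although its spots were saturated.

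Genes whose ratios lay nearest were found by the distance over the 4 arrays of both pairs among 2059 genes. For SIP18 they were ISF1 (distance 0.52 in log2 units), SPG4 (0.61) and PAL2 (0.69). For DDR2 they were SSA3 (0.35), FMP48 (0.59) and SPS100 (0.61). SSA3 had -0.98 in bdf1Δ+HAL2, the same to 2 decimals as DDR2, and -1.49 in bdf1Δhda1Δ. CTT1 had no value on all 4 arrays and was not compared.

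Neighbours were taken from the RefSeq annotation of assembly R64, a step chosen after the values were known. SIP18 shares its upstream region with PAI3, which encodes an inhibitor of proteinase A. PAI3 fell in bdf1Δ+HAL2 with a ratio of -1.12 ± 0.03 and had -0.45 ± 0.12 in bdf1Δhda1Δ. Against W303 it was called higher at 3.28 (3.06 after print-tip loess), where SIP18 had -1.09.

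FMP40, which shares the upstream region of GRE1, had -0.72 ± 0.01 in bdf1Δ+HAL2 and -0.42 ± 0.06 in bdf1Δhda1Δ. PDC6, across the upstream region of CTT1, had -0.60 ± 0.21 in bdf1Δ+HAL2, and PEA2, across that of SPI1, had 0.26 ± 0.04. FRE7, a reductase gene upstream of GRE2 on the same strand, rose in bdf1Δhda1Δ with a ratio of 1.49 ± 0.02, where GRE2 had 0.19.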

How the data were processed

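The authors deposited 1 scanner table per array, with spot and local background intensity for both dyes and a flag, per the file headers, and 1 table of a linear ratio per gene and array. The deposited intensities are not normalized. The authors' ratios ran as the first-named strain over the second on every array, read from their correlation across genes with the scanner values (Pearson r of 0.806 to 0.937). Their medians were 0.195 on the W303 array and 0.992 to 1.04 on the other 4, and how they were normalized is unknown. The image software is not given in the sources used here. Dyes and strains follow the labels. Of 6388 gene probes, 5849 matched a RefSeq locus tag (assembly R64).

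Background was corrected with normexp (offset 50) and each array normalized by global loess in limma 3.58.1 (R 4.3.3), with control and not-found spots at weight 0. The offset pulls the ratios of dim spots towards 0. Later steps used Python 3.11.15 and pandas 2.3.3. Ratios of the array with exchanged dyes were turned to the same direction. A spot was used if found and above 2 background SDs in at least 1 channel, and a gene needed 2 of 3 spots on every array of its comparison. A gene was called beyond 2-fold on every array, and no p-value was computed, as dye-exchanged arrays are 1 replicate. The procedure was tested on simulated data with no print-block effects, so that test does not cover the block effects of the W303 array. Its pass mark, over genes with both channels above background, was chosen after seeing the result.

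The number of arrays limits the precision. All 10 genes are named. From the related lists, every paralogue and other hydrophilin is named, with every gene called in a dye-exchanged pair and the 3 highest called by both fits against W303. HSP26 is named as the highest of these by print-tip loess. The lowest called by both fits were also to be named, but no gene of these lists was called lower by both. For SIP18 and DDR2 the 3 genes nearest over 4 arrays are named, and CTT1 was not measured on all 4. The genes and lists were chosen with earlier results of these data known. Alternatives were print-tip loess, median centring, scale normalization, no background subtraction, spot means, other spot filters, medians of repeat spots, the authors' ratios and each array alone, with the authors' ratios centred on each array's median added after seeing the data.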

Additional observations from a re-analysis of the deposited data

Results flagged for a closer look

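HSP12 lay above 0 on both arrays of bdf1Δ+HAL2 against bdf1Δ (mean log2 ratio 0.2065) and below 0 on both arrays of bdf1Δhda1Δ against bdf1Δ (mean -0.06754). It was singled out because the arrays of the HAL2 pair all lay above 0 and those of the hda1 pair all below. On array 2 of the hda1 pair HSP12 was at -0.02, close to 0. With the authors' deposited ratios its mean in the HAL2 pair was below 0 (-0.16). The difference between the pairs was not tested, neither mean passed 2-fold, and after print-tip loess both were below 0 (-0.13 and -0.07).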

How the results depend on the processing

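The calls of SIP18 and CTT1 in bdf1Δ+HAL2 were kept under 12 of 12 alternatives, with ratios of -2.52 to -1.68 and -2.02 to -1.27. In both pairs, the alternatives with each array alone could not lose a call, because a call already needs both arrays. The spot filters left the values of SIP18, CTT1 and DDR2 unchanged where they were called. The DDR2 call in bdf1Δhda1Δ was kept under 11 of 12 and lost with the authors' deposited ratios, which left 0 members lower there; with those ratios centred on each array's median, an alternative chosen after seeing the data, it was kept. In bdf1Δ+HAL2 the count of lower members became 4 with scale normalization, and the median of the 10 became -0.33 with print-tip loess, -0.79 with median centring and -0.72 with scale normalization. With each array alone that median was -0.59 to -0.55 and 2 to 3 members were lower. In bdf1Δhda1Δ the median became -0.39 with median centring, and with each array alone 1 to 2 members were lower, the 2 including CTT1 on array 1. Against W303 the count of higher members, 4, became 2 with print-tip loess, 0 with scale normalization and 2 with the authors' deposited ratios. The count of lower members, 2, became 0 with print-tip loess, 1 with median centring, scale normalization, spot means or both channels above background, and 5 with the authors' deposited ratios (1 when centred). The median there, 0.48, became 1.12 with median centring, 1.07 with both channels above background, and -0.80 with the authors' deposited ratios as given. Those have a median of 0.195 on that array, an offset shared by all genes, which also gives ALD3 -0.32. Centred, the members' median was 1.56, ALD3 had 2.04, and SIP18 turned to 0.42. Over all genes on that array, 587 called higher and 679 lower became 219 and 228 with print-tip loess. For the other alternatives, in every comparison, the shares called over all genes are not given here. The members' counts under them therefore cannot be set beside the whole array and are not read as particular to the members. Of the members' ratios under all alternatives, 239 moved by less than their SD, 85 by more, and 2 called values changed sign (ALD3 with the uncentred ratios and SIP18 with the centred). The cause of these changes was not tested. Leaving out 1 array of a pair always moves the mean by less than its SD. The same holds for the median of repeat spots on the W303 array, and the spot filters left most values unchanged. Part of the 239 was therefore fixed in advance and does not measure robustness. No paired analysis was possible because the shared array numbers mark dye exchanges and no test was run. Dim bdf1Δ signal limits GRE2 and DDR2 against W303, and saturation limits GRE1 and SED1 in the HAL2 pair.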
